A study of Drosophila melanogaster with 12 samples.

Results

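In forelegs of male Drosophila melanogaster, 90 genes had RNA in one strain and almost none in another. They were chosen by a rule on measured counts: raw counts summed over the 3 libraries of a strain had to be 3 or fewer (off) in one or more of the 3 strains (CO13N, CS, RG11N), and 100 or more (on) in another. Of 17807 genes in the table, 142 met these thresholds, and 52 of them were left out by symbol, namely long noncoding and antisense RNAs, chemosensory genes, P450 and other detoxification families, immune peptides, cuticle proteins, methuselah-like receptors and 4 named genes. Differences between the 3 strains therefore selected the 90 genes and are given as a description, with no test. A CS/CO13N hybrid, which the rule did not use, shows how much of the transcript was present when 1 parent was on and the other off.

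The 4 groups hold 3 libraries each, which the labels call biological replicates, so p-values measure the spread between these samples. The series calls CO13N and hybrid males selective, and males of the CS strain and of RG11N promiscuous. The labels give no age, no rearing condition, no number of pooled flies and neither the direction nor the generation of the hybrid cross. RNA was polyA-selected, and library totals ranged from 26374831 to 36034966 counts, so that 3 counts equal 0.0833 to 0.114 CPM, counts scaled to library size, in a single library. Scr, a Hox gene of the foreleg segment, lay between 216 and 323 CPM in every library, while Poxn, a gene of taste bristle development, was at or near 0 (0 to 1.29 CPM). Marker genes of accessory gland and ovary each summed to under 1 CPM in every library, and those of testis to between 1.02 and 6.6 CPM. Marker sums of muscle differed widely, from 938 CPM in RG11N 1 to 12034 CPM in CO13N 1, with 10950 CPM in CS 1. Those of fat body were 170 to 323 CPM in CS and 35.8 to 52.8 CPM in CO13N. They were 63.0 to 151 CPM in the hybrid and 24.4 to 72.3 CPM in RG11N, mostly from the gene takeout (to). What these differences add to the selected genes was not tested. The tissue is a bulk sample, in which fewer cells of a type and less RNA per cell cannot be told apart.

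Strains of a species commonly differ in genes that are transcribed in one and silent in the other. In the first generation of a cross, an autosomal gene has a copy from each parent, and a transcript made only from the copy of the parent that is on is commonly present at an intermediate level. Males carry a single X chromosome, which comes from the mother, so an X-linked gene in such a male has only the maternal copy. These counts do not separate the parental alleles, and no cause of a strain difference was tested.

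Of the 90 genes, 52 were on and 20 off in CO13N, 21 were on and 53 off in CS, and 31 were on and 37 off in RG11N. The thresholds apply to raw counts, and every CO13N library (32081421 to 36034966 counts) was larger than every CS library (26374831 to 30041530 counts). What this adds to the numbers on and off was not tested. The lowest strain sum was 0 in 85 genes and 1 to 3 in 5. The annotation lists 81 as protein coding, 6 as pseudogenes and 3 as other RNAs. By chromosome, 17 lie on 2L, 14 on 2R, 28 on 3L, 20 on 3R, 10 on X, 1 on Y and 0 on 4. The share on 3L was 31.1%, against 19.0% of the 9528 genes with 100 or more counts in a strain. The sum in the strain with most counts ranged from 100 to 3997 with a median of 152.5, so most of these genes were close to the threshold.

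Just inside the on threshold lay dmrt11E, a DM-domain transcription factor gene, with 100 counts, and Awh, a LIM-homeodomain factor gene, and t-Grip84, a testis form of a gamma-tubulin ring protein, with 101 each. Just outside it lay CG7963 and CG34456 with 99 and CG30484 with 97. On the off side, 4 genes had a lowest strain sum of 4, among them CG33322, Spc25 and RhoGEF4. For the reading of the hybrid it matters that the parental values were selected as high or low, whereas the hybrid values were not.

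**Figure D1:**
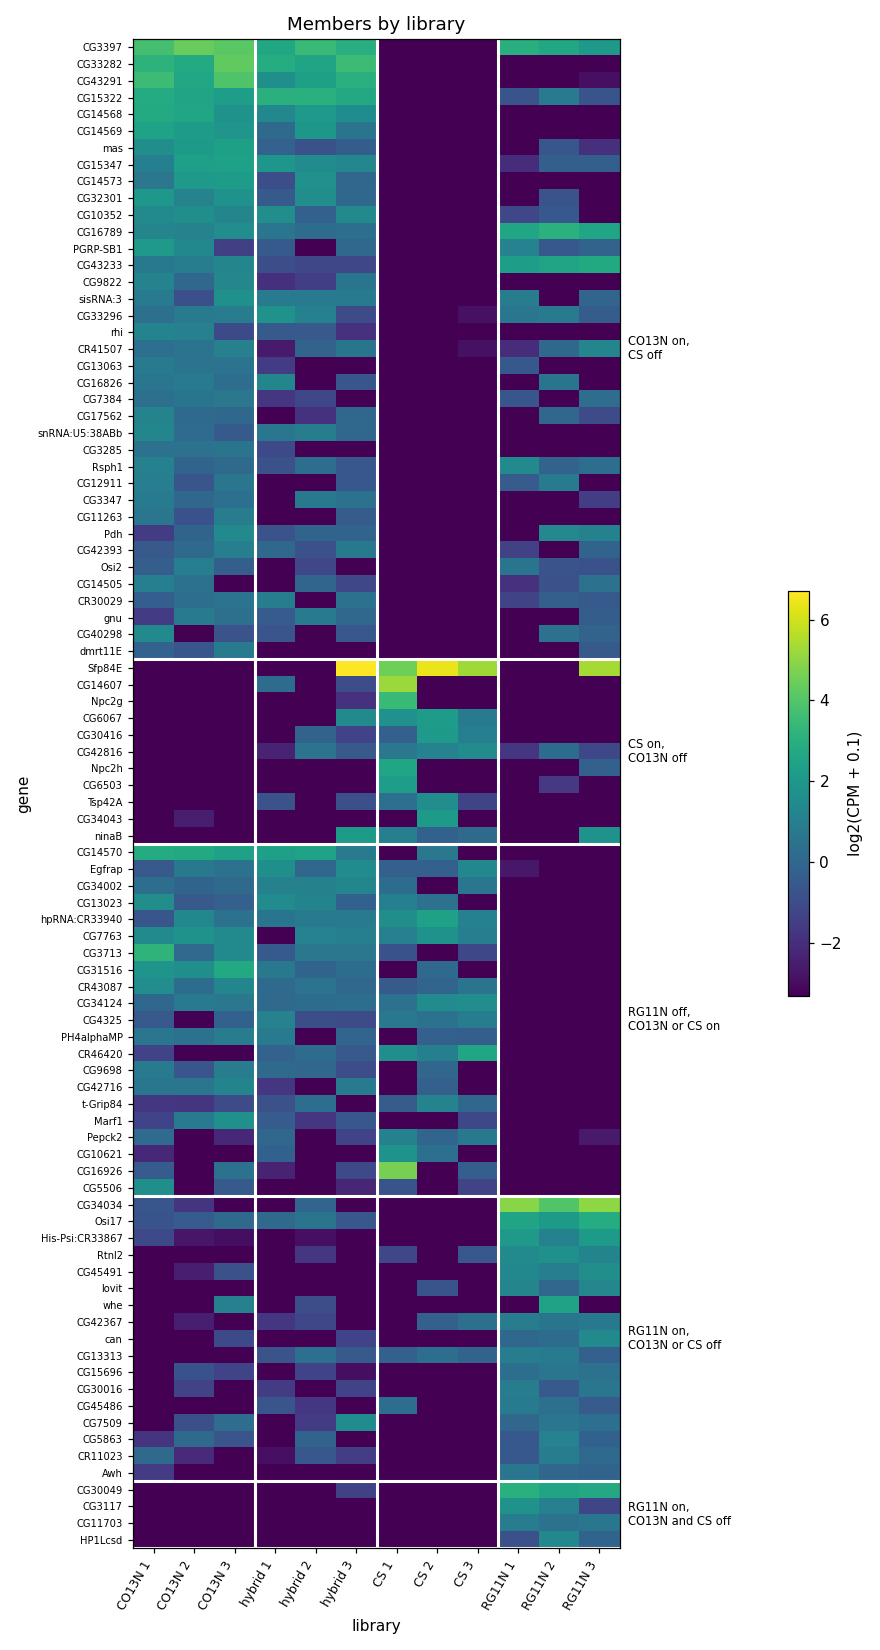
Level of each of the 90 genes (rows) in each of the 12 libraries (columns), as log2 of CPM plus 0.1, with the genes grouped by the strains in which they were on and off. Most of the 37 genes that were on in CO13N and off in CS have signal in the hybrid columns, while the 11 genes that were on in CS and off in CO13N often show it in hybrid 3 alone or in CS 1 alone.

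In 79 of the 90 genes the hybrid had 4 or more counts in all, and in 28 it had 100 or more. The largest class, 37 genes, was on in CO13N and off in CS. In this class 36 genes had 4 or more hybrid counts and 15 had 100 or more; 23 were detected in all 3 hybrid libraries, 8 in 2 and 5 in 1. As a background, 472 of 5211 genes with 3 or fewer counts in both parents (9.06%) had 4 or more counts in the hybrid, and 2 of them (0.0384%) had 100 or more. Of 890 genes with 100 to 499 counts in both parents, 824 (92.6%) had 100 or more in the hybrid. The class with CO13N on and CS off lay between these 2 backgrounds in its share with 100 or more hybrid counts, a description with no test.

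CG33282, which encodes a protein like sugar transporters and lies at 2L:3327903-3329792, was off in both promiscuous strains. CO13N had 289, 261 and 613 counts, CS and RG11N had 0 in all libraries, and the hybrid had 221, 169 and 409. Every hybrid library was therefore above every library of CS, and the hybrid and CO13N ranges overlapped. The level was 11.5 ± 6.5 CPM in CO13N and 8.15 ± 3.03 CPM in the hybrid (SD, n = 3), and the hybrid level was at least 233-fold higher than the floor of 3 counts pooled over the CS libraries. Its neighbour CG3285, of the same transporter family, had 42, 47 and 44 counts in CO13N and 0 in CS and RG11N, and in the hybrid it had 11, 0 and 0. The adjacent pair thus had the same strain pattern, with a hybrid level of 70.9% of CO13N for CG33282 and 9.39% for CG3285, a difference that was not tested. The exons of CG3285 overlap those of CG15408, so its reads are not assigned with certainty.

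CG3397 encodes a putative aldo-keto reductase, an enzyme class that reduces carbonyl compounds, and lies at 3R:11983098-11984541. It had 441, 795 and 562 counts in CO13N, 189, 328 and 274 in the hybrid, 268, 181 and 129 in RG11N and 0 in all 3 CS libraries. The 3 hybrid values were all below the 3 CO13N values and far above CS. The fitted hybrid level was 48.4% of CO13N (95% interval 29.4 to 79.8), with a raw p of 0.00712 and an adjusted p of 0.658 in edgeR's quasi-likelihood test with Benjamini-Hochberg adjustment, so the difference from CO13N was not called. The hybrid was at least 231-fold above the CS floor, with an adjusted p of 5.09e-07 in the same test. CS was selected as low in this gene, so the comparison with CS is a description only.

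CG12224, a second aldo-keto reductase gene 1036 bases away, was no member because CS had 7 counts, all in CS 3. It had 334, 445 and 387 counts in CO13N, 170, 177 and 191 in the hybrid and 449, 373 and 298 in RG11N. The hybrid libraries were again all below CO13N, and CS lay far below the rest in both genes. In CO13N versus CS the log2 fold change of CG12224 was 7.01, with an adjusted p of 3.53e-06 by edgeR's quasi-likelihood test with Benjamini-Hochberg adjustment. The pair CG3397 and CG12224 was thus low together in CS.

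On chromosome arm 3L the adjacent genes CG14570, CG14569, CG14568 and CG14573 (3L:21729675-21734788), to which no function is given here, were on in CO13N and had 0 counts in every RG11N library. CG14568 had 227, 229 and 111 counts in CO13N, 0 in each CS library and 76, 124 and 100 in the hybrid. CG14569 had 176, 169 and 117 counts in CO13N, 0 in CS and 31, 117 and 48 in the hybrid. CG14573 had 49, 159 and 150 counts in CO13N, 0 in CS and 13, 98 and 32 in the hybrid. CG14570 differed from them in CS, where CS 2 had 39 counts and the others 0, and it had 234, 259 and 171 counts in CO13N and 149, 162 and 57 in the hybrid. In each of the 4 genes the hybrid mean was below the CO13N mean, while the hybrid and CO13N ranges overlapped in CPM in all 4. The hybrid percent of CO13N was 47.1% for CG14569, 58.2% for CG14568 and 44.9% for CG14573, and 62.4% for CG14570 in the fit. The exons of CG14570 overlap those of Polr2H, a subunit gene shared by the RNA polymerases.

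**Figure D2:**
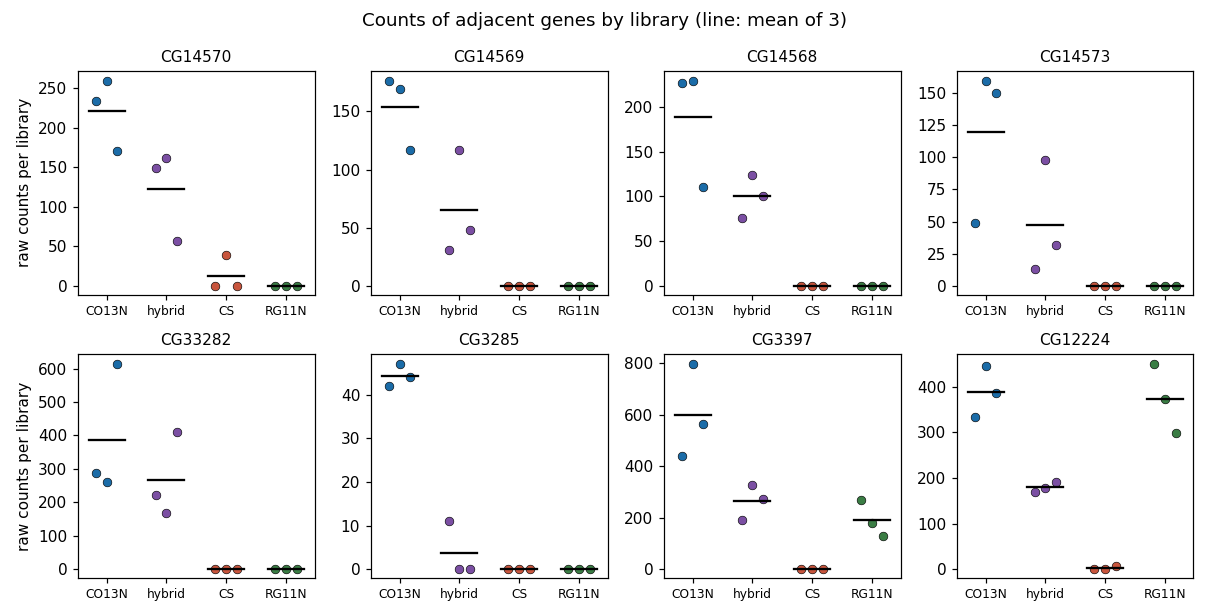
Raw counts per library (vertical axis) of adjacent genes in CO13N, the hybrid, CS and RG11N, with points for the 3 libraries and a line for their mean. The 4 genes of the 3L group and the pair on 2L lie at 0 in RG11N, whereas CG3397 and CG12224 are on in RG11N and near 0 only in CS; each hybrid mean lies below the CO13N mean.

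CG43291, a gene of unknown function on 3R, had 388, 240 and 497 counts in CO13N, 93, 153 and 287 in the hybrid, 0 in each CS library and 0, 0 and 1 in RG11N. Its hybrid level was 48.8% of CO13N, and the hybrid 3 library reached into the CO13N range. CG16789 and CG43233 were instead highest in RG11N. CG16789 had 75, 79 and 96 counts in CO13N, 43, 32 and 40 in the hybrid and 214, 236 and 182 in RG11N, so the hybrid, CO13N and RG11N libraries did not overlap. CG43233 had 52, 69 and 75 counts in CO13N, 13, 10 and 12 in the hybrid and 167, 160 and 209 in RG11N. Its fitted hybrid level was 19.5% of CO13N (95% interval 6.14 to 61.9), and the hybrid again lay below all libraries of the other 2 groups that were on. Exons of CG16789 overlap those of CG16790.

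Several members that are known from the germline or from motile cilia were on in CO13N and off in CS, all at low levels. In CO13N rhi, gnu and Rsph1 averaged 1.5, 1.04 and 1.29 CPM, where the testis markers summed to 2.12 to 2.86 CPM. Of the ovary markers, osk had counts only in CO13N (0.25 to 0.935 CPM), and vas only in CS and the hybrid. rhi, which encodes an HP1 relative that binds piRNA clusters in the ovary, had 72, 75 and 12 counts in CO13N, 19, 18 and 6 in the hybrid and no counts in RG11N or CS. gnu, a cell cycle gene of the egg and early embryo, had 8, 64 and 39 counts in CO13N, 20, 50 and 34 in the hybrid, 21 in RG11N 3 alone and 0 in CS. Rsph1, a radial spoke protein gene of cilia and flagella, had 67, 31 and 33 counts in CO13N, 14, 34 and 20 in the hybrid and 93, 23 and 35 in RG11N. The hybrid and CO13N ranges overlapped in all 3 genes. Rsph1 shares exon bases with Alg7 and CG16974, and its counts may hold reads of those genes.

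mas, the gene of the serine protease homologue masquerade that acts in muscle attachment, had 98, 165 and 165 counts in CO13N and 24, 14 and 24 in the hybrid. CS had 0 in all libraries and RG11N had 0, 15 and 5, so mas was far lower in each of the other groups than in CO13N. The fitted hybrid level was 15.7% of CO13N (95% interval 2.33 to 106). The neighbouring transcript lncRNA:CR44529 met the count thresholds but was left out by symbol. It had 184, 283 and 213 counts in CO13N, 74, 38 and 54 in the hybrid and 0 in CS. This is the same order of groups as mas, with CO13N high and CS low by the thresholds in both.

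Among the other named genes of the class, PGRP-SB1, a peptidoglycan recognition protein of the immune response, had 139, 95 and 9 counts in CO13N, 19, 0 and 34 in the hybrid and 73, 16 and 25 in RG11N. Pdh, a dehydrogenase gene, had 8, 32 and 84 counts in CO13N, 15, 25 and 30 in the hybrid and 0, 72 and 62 in RG11N. Both varied widely between the CO13N libraries, and Pdh shares exon bases with Tcs3 and an antisense RNA. Osi2, of the Osiris family of cuticle-related membrane proteins, had 24, 72 and 23 counts in CO13N and 0, 10 and 0 in the hybrid. sisRNA:3, a stable intronic RNA, had 55, 17 and 102 counts in CO13N and 49, 50 and 58 in the hybrid. The U5 spliceosomal RNA copy snRNA:U5:38ABb had 77, 40 and 20 counts in CO13N, 43, 53 and 33 in the hybrid and no counts in RG11N or CS. Its reads may be shared with other U5 copies, and how such reads were counted is not stated. RNA was polyA-selected, and how well this captures a small nuclear RNA of 127 bases was not tested, so its counts may not measure its level.

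Across the 32 autosomal genes on in CO13N and off in CS, the median hybrid level was 47.0% of CO13N (quartiles 21.9% and 69.3%), and the ratio of their summed CPM was 50.2%. Single genes ranged from 5.37% for CG13063, with 53, 52 and 43 counts in CO13N and 7, 0 and 0 in the hybrid, to 127% for CG33296, with 40, 63 and 58 in CO13N and 106, 60 and 14 in the hybrid. In all, 20 genes were below 50%, 9 between 50% and 100%, and 3 (CG33296, gnu and snRNA:U5:38ABb) above 100%. Computed from single hybrid libraries the median was 27.9%, 42.2% and 44.8%, an SD of 9.12 percentage points. The approximate 95% intervals of all 32 genes held 50%, and those of 30 also held 100%; the exceptions were CG3397 and CG43233, whose intervals lay below 100%. The median is thus near 50%, but for most single genes these libraries do not separate a level of 50% from one of 100%. CO13N values in this ratio were selected as high. Restricting the class, X-linked genes included, to 13 genes with 200 or more counts in CO13N gave a range of 15.6% to 129%, a median of 48.8% and hybrid sums of 53 to 799, with 12 of the 13 detected in all hybrid libraries.

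**Figure D3:**
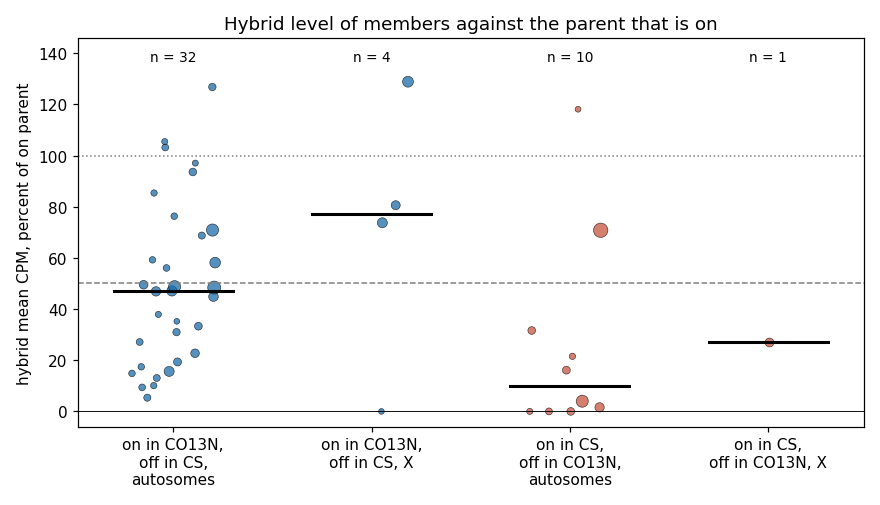
Hybrid mean CPM as a percent of the parent that was on (vertical axis), 1 point per gene, with point area growing with the summed counts in that parent and a line at the median of each class. The dashed line marks 50% and the dotted line 100%; the 32 autosomal genes on in CO13N centre on 47.0%, and the 10 autosomal genes on in CS on 10.1%.

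With CO13N on and CS off, 0 of 37 genes were called lower in the hybrid than in CO13N (0.0546% of all 10996 tested genes were) and 0 were called higher (background 0.2%), in edgeR's quasi-likelihood test at a Benjamini-Hochberg adjusted p under 0.05. At an unadjusted p under 0.05, 3 were lower and 0 higher; DESeq2 called 1 lower. Against CS, 12 of the 37 were called higher in the hybrid, where 0.773% of all tested genes were, and 31 were higher at an unadjusted p under 0.05; DESeq2 called 24. The hybrid values are independent of the rule, but the CS values were selected as low, so the calls against CS are a description only. The 12 are CG3397, CG15322, CG33282, CG43291, CG16789, CG14568, CG15347, CG14569, CG43233, CG10352, CG33296 and CG14573, with adjusted p from 5.09e-07 to 0.0461. In the first 9 of these the call held in all 18 settings tried, while CG10352, CG33296 and CG14573 lost it in 9 or 10 of them.

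Beyond the genes described above, the fold over the pooled CS floor was at least 156 for CG43291, at least 87.5 for CG14568, at least 57.2 for CG14569, at least 41.7 for CG14573, at least 33.6 for CG16789 and at least 10.2 for CG43233. CG33296 had 1 count in CS and is given no fold.

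The hybrid levels of the 4 X-linked genes of the class ranged from 0% to 129% of CO13N. CG15322 had 232, 221 and 158 counts in CO13N and 250, 241 and 230 in the hybrid, with 18, 48 and 16 in RG11N and 0 in CS. The hybrid level was 129% of CO13N (95% interval 58.6 to 283), an interval above 50%. CG15347 had 63, 190 and 168 counts in CO13N and 113, 83 and 85 in the hybrid, or 73.7%. CG10352 had 88, 119 and 73 counts in CO13N and 92, 22 and 96 in the hybrid, or 80.6%, and its exons overlap those of CG15739. All 3 were at least 61.3-fold above the CS floor. dmrt11E, by contrast, had 26, 21 and 53 counts in CO13N and 0 in all 3 hybrid libraries, at most 3.25% of CO13N by the floor of 3 counts. Whether the X chromosome of the hybrid males came from CO13N is not in the labels, and its part in these levels was not tested.

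The Y-linked pseudogene CR41507 had 39, 50 and 63 counts in CO13N, 2, 24 and 49 in the hybrid, 5, 26 and 70 in RG11N and 0, 0 and 1 in CS. Its hybrid libraries spread over the range from near 0 to the CO13N level.

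The reverse class, on in CS and off in CO13N, held 11 genes, and its hybrid values depended on single libraries. The hybrid had 4 or more counts in 8 of them, in 1 library alone in 4, in 2 libraries in 3 and in all 3 libraries in 1, and it had 0 in the remaining 3. The median hybrid level of the 10 autosomal genes was 10.1% of CS, and it was 0% in hybrid 1 and in hybrid 2 and 9.10% in hybrid 3. With hybrid 3 left out it was 0%. With CS 1 left out, CG14607, CG6503, Npc2g and Npc2h had 0 CS counts, so they have no percent of CS. No level common to the class can therefore be given. In edgeR's quasi-likelihood test 0 of 7 tested genes were called lower in the hybrid than in CS (background 0.2%), and 0 of 7 were called higher than in CO13N, where 5 were higher at an unadjusted p under 0.05 and DESeq2 called 2 of 5.

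CG42816, the gene of this class with counts in all 3 hybrid libraries, had 43, 53 and 80 counts in CS, 3, 39 and 21 in the hybrid, 7, 30 and 11 in RG11N and 0 in CO13N. All hybrid values were below all CS values, at a mean of 31.6%. Tsp42A, a tetraspanin membrane protein gene, had 34, 75 and 9 counts in CS and 15, 0 and 16 in the hybrid, with 0 in CO13N and RG11N. CG30416 had 22, 109 and 55 counts in CS and 0, 24 and 11 in the hybrid. Both spread widely within CS, and the hybrid ranges overlapped with it.

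Sfp84E, ninaB and CG6067 had counts only in libraries that were high in odorant receptor RNA. Sfp84E, named as a seminal fluid protein, had 669, 2210 and 1118 counts in CS, 0, 0 and 3713 in the hybrid, 0, 0 and 1256 in RG11N and 0 in CO13N. The summed level of 60 odorant receptor genes, markers of antennal neurons, was 88.6 to 250.3 CPM in these 5 libraries (the CS libraries, hybrid 3 and RG11N 3) and 13.4 to 24.1 CPM in the other 7. Sfp84E shares 27 exon bases with Os-C, an antennal gene on the opposite strand of 3R, and its counts were 15.9% to 20.3% of those of Os-C in each of the 5 libraries. Strand use in counting is not stated, so reads that reach the shared bases cannot be assigned to 1 gene with certainty. What share of the Sfp84E counts such reads make up was not tested. Over all 10 measured genes of the antenna and palp list, none at 0 throughout, the summed level was 705 to 2480 CPM in the 5 libraries and 18.7 to 151 CPM in the others. Single genes of the list split the libraries in the same way except lush, Or22a and Or71a. lush had 58.7 to 142 CPM in CO13N and 60.9 CPM in CS 1, Or22a had 0 in CS 1, and Or71a was highest in RG11N 2.

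ninaB, the enzyme that cleaves carotenoids for the visual chromophore, had 54, 20 and 29 counts in CS, 152 in hybrid 3, 106 in RG11N 3 and 0 elsewhere. CG6067, on the X, had 97, 119 and 49 counts in CS, 93 in hybrid 3 and 0 elsewhere, RG11N 3 included. Within the 5 libraries high in odorant receptors the counts of ninaB did not follow the receptor sum, the lowest being in CS 2. Exons of ninaB overlap those of Adgf-D and f-cup, and exons of CG6067 overlap those of fs(1)M3. What antennal RNA adds to these genes was not tested, and strain and antennal RNA cannot be told apart for them in CS and CO13N, whose libraries all lie on opposite sides.

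**Figure D4:**
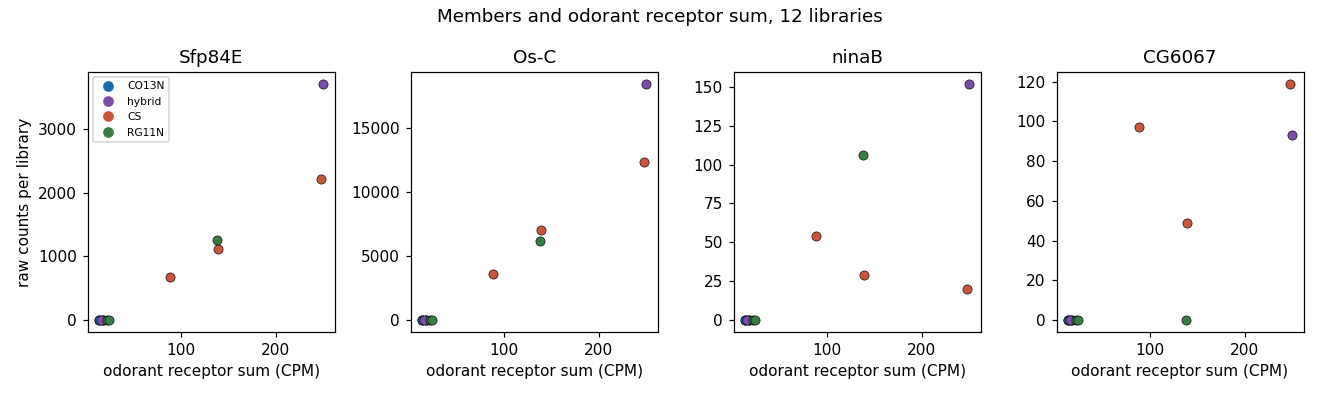
Raw counts of Sfp84E, Os-C, ninaB and CG6067 (vertical axes) against the summed CPM of odorant receptor genes (horizontal axes), 1 point per library, coloured by group. The 7 libraries with a receptor sum of 13.4 to 24.1 CPM lie at or near 0 in each panel, and Sfp84E and Os-C are highest in hybrid 3 and then in CS 2.

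In 5 genes the CS counts came almost wholly from CS 1. CG14607 had 1089, 0 and 0 counts in CS, 32, 0 and 15 in the hybrid and 0 in the other groups. Npc2g and Npc2h, adjacent genes of the NPC2 family of sterol- and lipid-binding proteins, had 314 and 178 counts in CS 1 and 0 in CS 2 and CS 3. The hybrid had 6 counts of Npc2g in 1 library and none of Npc2h, and RG11N 3 had 23 of Npc2h. CG6503 had 138 counts in CS 1 and CG16926 had 729, with 0 and 20 counts of CG16926 in CS 2 and CS 3. These 5 genes describe 1 library rather than the strain. CG34043 likewise rested on 111 counts in CS 2.

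RG11N alone was off, with CO13N or CS on and neither off, in 21 genes, and the hybrid of the 2 other strains had 4 or more counts in all 21 and 100 or more in 10. In edgeR's quasi-likelihood test 11 of the 21 were called higher in the hybrid than in RG11N (17 at an unadjusted p under 0.05), where 2.76% of all tested genes were. They are CG34124, CG7763, Egfrap, CG13023, CG34002, CR43087, hpRNA:CR33940, CG14570, CG31516, CG3713 and CR46420. RG11N was selected as low in these genes, so this count is a description only.

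In 4 of the 21, CG34124, CG7763, Egfrap and hpRNA:CR33940, both parents were on. CG34124 had 30, 61 and 48 counts in CO13N, 36, 71 and 84 in CS, 31, 32 and 40 in the hybrid and 0 in RG11N. CG7763, a C-type lectin gene, had 90, 131 and 85 in CO13N, 58, 90 and 54 in CS and 0, 62 and 67 in the hybrid. Egfrap, an adaptor in epidermal growth factor receptor signalling, had 20, 60 and 41 in CO13N, 22, 19 and 71 in CS, 95, 27 and 97 in the hybrid and 2, 0 and 0 in RG11N. hpRNA:CR33940, a hairpin RNA, had 18, 94 and 41 in CO13N, 92, 134 and 58 in CS and 42, 48 and 57 in the hybrid, and its exons overlap those of CG32212. None of the 4 was called in either direction against CO13N or against CS by edgeR's quasi-likelihood test, and none at an unadjusted p under 0.05 or by DESeq2. In CPM the hybrid overlapped with both parents in Egfrap, with CO13N but not CS in CG34124 and hpRNA:CR33940, where it lay below all CS libraries, and with CS but not CO13N in CG7763, where it lay below all CO13N libraries.

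Several genes in this class lay beside another member. PH4alphaMP and CG9698 encode alpha subunits of prolyl 4-hydroxylase, which modifies collagen, and lie at 3R:30491813-30516980. PH4alphaMP had 47, 47 and 59 counts in CO13N, 51, 0 and 31 in the hybrid, 0, 19 and 21 in CS and 0 in RG11N. CG9698 had 56, 20 and 56 in CO13N, 31, 27 and 15 in the hybrid, 0, 23 and 0 in CS and 0 in RG11N. Of relatives on 3R chosen after values were seen, PH4alphaEFB was on in every group, with 2201 to 3881 summed counts, and PH4alphaNE1, PH4alphaNE2, PH4alphaNE3, PH4alphaPV, PH4alphaSG1 and PH4alphaSG2 had 0 counts throughout. Exons of PH4alphaMP overlap those of PH4alphaSG2. CG34002 had 37, 32 and 33 counts in CO13N, 31, 0 and 41 in CS and 61, 61 and 82 in the hybrid, which lay above all libraries of both parents. CR43087, a pseudogene near it, had 96, 41 and 75 counts in CO13N, 18, 22 and 39 in CS and 30, 39 and 34 in the hybrid. CG5506, in the same 3L group, had 103, 0 and 20 counts in CO13N and 0, 0 and 4 in the hybrid.

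The X-linked genes CG3713 and CG4325 were off in RG11N alone. CG3713 had 299, 37 and 84 counts in CO13N, 19, 45 and 52 in the hybrid and 14, 0 and 10 in CS. CG4325 had 20, 0 and 25 in CO13N, 63, 13 and 14 in the hybrid and 45, 32 and 52 in CS. CO13N 1 carried most of the CO13N counts of CG3713. CR46420, a pseudogene, had 10, 0 and 0 counts in CO13N, 87, 49 and 173 in CS and 24, 32 and 21 in the hybrid. CG31516 had 118, 119 and 216 counts in CO13N, 0, 25 and 0 in CS and 47, 25 and 38 in the hybrid. The hybrid of CR46420 lay between its parents without overlap.

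Other named genes of the class were Marf1, t-Grip84 and Pepck2. Marf1, an RNA regulator of the oocyte, had 10, 64 and 102 counts in CO13N, 0, 0 and 10 in CS and 20, 6 and 20 in the hybrid. t-Grip84 had 7, 7 and 13 in CO13N, 19, 55 and 27 in CS and 14, 34 and 0 in the hybrid. Pepck2, a phosphoenolpyruvate carboxykinase of gluconeogenesis, had 34, 0 and 4 in CO13N, 59, 22 and 45 in CS, 27, 0 and 11 in the hybrid and 0, 0 and 2 in RG11N. In none of these 3 genes was the hybrid called different from RG11N.

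In 4 genes RG11N was on and both parents of the hybrid were off, so both parental sums were 3 or fewer. CG30049 had 286, 161 and 203 counts in RG11N, 0 in CO13N and CS, and 0, 0 and 10 in the hybrid. CG3117 had 120, 56 and 10 counts in RG11N, HP1Lcsd, of the HP1 heterochromatin protein family, had 16, 70 and 26, and CG11703 had 64, 36 and 45, with 0 in all other libraries. The hybrid thus had 4 or more counts in 1 of the 4 genes, beside the 9.06% among all genes off in both parents. Of 3 tested, CG30049 was called lower in the hybrid than in RG11N by edgeR's quasi-likelihood test (background 1.71%). RG11N was selected as high in these genes and both parents as low, so nothing is read from this count.

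In another 17 genes RG11N was on, 1 of the 2 parents was off and the other was not on. The hybrid had 4 or more counts in 13 of them and 100 or more in 1, CG7509, where hybrid 3 held 102 of 109 counts. Of the 17, 1 was called lower in the hybrid than in RG11N and 7 were lower at an unadjusted p under 0.05. RG11N was selected as high here too, and these counts are a description only. CG34034 had 1067, 448 and 982 counts in RG11N, 18, 7 and 0 in CO13N, 0, 26 and 0 in the hybrid and 0 in CS, at 26 ± 8.74 CPM in RG11N and 0.290 ± 0.502 CPM in the hybrid (SD, n = 3). Its hybrid libraries were all far below the RG11N libraries. Osi17, an Osiris gene like Osi2, had 200, 120 and 225 counts in RG11N, 17, 24 and 33 in CO13N, 31, 42 and 20 in the hybrid and 0 in CS. The hybrid and CO13N overlapped for Osi17, and RG11N was above both.

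The gene called lower was His-Psi:CR33867, a histone pseudogene, with 142, 57 and 134 counts in RG11N, 12, 2 and 1 in CO13N, 0, 1 and 0 in the hybrid and 0 in CS, which may share reads with the repeated histone genes. can, a transcription factor subunit of spermatocytes, had 32, 30 and 82 counts in RG11N, 12 in CO13N 3, 11 in hybrid 3 and 0 elsewhere. Awh had 51, 25 and 25 in RG11N, 8 in CO13N 1 and 0 elsewhere. Both transcription genes were thus present in every RG11N library. lovit, a transporter gene of visual transmission, had 79, 25 and 74 in RG11N and 13 in CS 2. Rtnl2, a reticulon-like gene of the endoplasmic reticulum, had 91, 90 and 68 in RG11N, 10, 0 and 16 in CS and 0, 6 and 0 in the hybrid. whe was the opposite case, with 0, 151 and 0 in RG11N and 64 in CO13N 3, so that 1 library carried it.

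CG45491 and CG45486 belong to a group of genes with neighbouring numbers on the X. CG45491 had 86, 52 and 93 counts in RG11N, 0, 3 and 15 in CO13N and 0 in CS and the hybrid. CG45486 had 60, 34 and 20 counts in RG11N, 33 in CS 1, 16, 6 and 0 in the hybrid and 0 in CO13N. Of their neighbours, chosen after values were seen, CG45488 had 245 summed counts in RG11N against 38 to 81 in the other groups, and CG45490 had 207 against 49 to 58, while CG45487, CG45489 and CG45492 had at most 75 in any group, the 75 being CG45489 in the hybrid. Each of these genes except CG45489 had more counts in RG11N than in any other group, without a test. In CG45487 and CG45492 these were only 58 and 31 summed counts in RG11N. How reads shared between such genes were counted is not stated.

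In all, 15 of the 90 genes lay within 20 kb of another member, in 6 groups. Besides those described, HP1Lcsd lies near CG30416 on 2R, but the former was on in RG11N and the latter in CS. The genes next to members are themselves no members, but genes left out by symbol stayed among them. One of these, lncRNA:CR44529, had 680 counts in CO13N and 0 in CS and so met the count thresholds. Its call in CO13N versus CS and its direction are therefore not independent of the rule. In CO13N versus CS, 4 of 62 tested neighbours were called (6.45%, against 3.14% of all tested genes), and in RG11N versus CS 3 of 52 (5.77%, against 5.77%). All 7 calls had the direction of the adjacent member. They include CG12224 in both comparisons, lncRNA:CR44529 beside mas, CG17839 beside gnu, with a log2 fold change of 0.82, CG30047 beside CG30049, and CG42821 beside CG5863. The shares of neighbours called are close to the background and are no result about neighbours as a class.

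CG13043, beside CG13063, had 1062, 3169 and 1048 counts in CO13N, 389, 769 and 425 in the hybrid, 493, 403 and 401 in RG11N and 39, 12 and 10 in CS. Its log2 fold change in CO13N versus CS was 6.08, with an adjusted p of 0.000352 by edgeR's quasi-likelihood test with Benjamini-Hochberg adjustment, and the hybrid was again below all CO13N libraries. CG30047 had 189, 325 and 276 counts in RG11N, 9, 13 and 28 in CO13N, 16, 0 and 8 in the hybrid and 0, 0 and 13 in CS. Like CG30049, 258 bases away, it was high in all 3 RG11N libraries and low in the other groups.

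Of 21 gene families counted by symbol, 4 held members. The Osiris family had 23 genes in the table, 5 of them on in a strain and 2 members, and of 4 other tested genes of the family 0 were called in CO13N versus CS or in RG11N versus CS. The tetraspanin family had 34 genes, 27 on in a strain and 1 member; of 28 other tested genes 1 was called lower in CO13N than in CS. The Sfp group had 28 genes, 1 on and 1 member, and the histone group 126 genes, 8 on and 1 member. Within the NPC2 family, chosen after values were seen, Npc2a and Npc2b had 2301 or more summed counts in each group, while Npc2c, Npc2d and Npc2e had at most 11 and Npc2f 44 to 72.

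Counts of the 90 genes were sparse. Of 1080 values, 498 were 0, 16 were 1 to 3, 37 were 4 to 9 and 529 were 10 or more. In 74 genes all 3 libraries of the strain with most counts had 10 or more, in 13 at least 1 of these libraries had 0 and in 7 of them 2 had 0. Among other genes with strain sums of 100 to 199, 12.4% of 1632 gene and strain pairs had a library at 0 and 0.858% had 2. In 8 genes 1 library held 90% or more of the counts of the strain. Values from 0 to over 100 between replicates of 1 strain thus occurred in members such as Npc2g, CG34043 and whe.

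**Figure D5:**
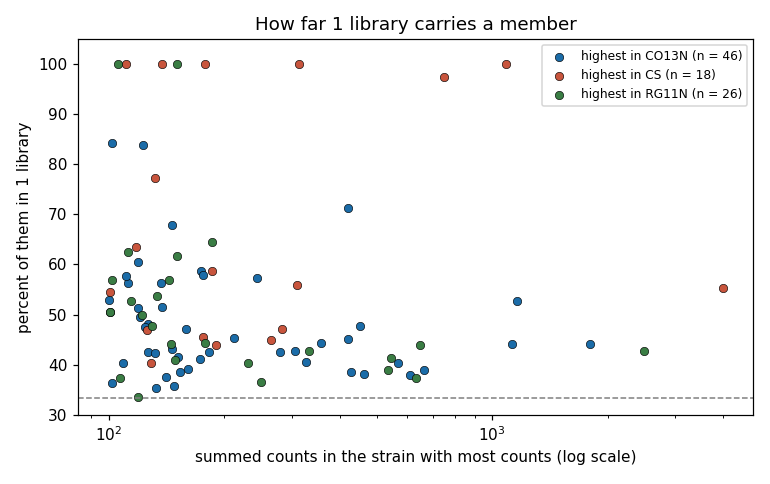
Share of the counts of the strain with most counts that came from its largest library (vertical axis) against the summed counts of that strain (horizontal log axis), 1 point per gene. The dashed line marks equal shares of 3 libraries; 8 genes reach 90% or more, 5 of them from CS 1.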

How the data were processed

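The authors deposited a table of raw gene counts (FlyBase identifiers) for 12 libraries. The submitters' processing notes name Subread and the build dm6, without version or settings. Strand use, annotation release and the handling of reads with several alignments are not given in the sources used here. Symbols and positions (1-based) come from Ensembl BDGP6.54, the assembly of dm6, in which 17710 of 17807 identifiers matched.

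The 90 genes were selected from summed counts by the rule given, and the genes and lists were chosen with earlier results of these data known. CPM of the 90 genes used TMM library sizes; CPM of marker genes (Scr and Poxn included), marker sums and the equivalents of 3 counts used total counts. Hybrid levels are ratios of 3-library mean CPM; intervals are approximate, from the edgeR standard error. A fold against a group at 0 uses a floor of 3 counts pooled over its libraries and covers counting error only.

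Tests were edgeR 4.0.16 (R 4.3.3) robust quasi-likelihood F tests with TMM and filterByExpr at a minimum count of 10, in 1 model of 4 groups with 8 residual degrees of freedom, and calls used a Benjamini-Hochberg threshold of 0.05 over 10996 genes. Of the 90 genes 85 passed this filter; CG34043, CG6503, Npc2g, Npc2h and CG3117 did not. The fit was also run on simulated counts with the same spread for every gene. The 90 genes are sparse, so that run says nothing about calls among them. Neighbours are the nearest genes on each side that do not overlap a member, with members left out and genes left out by symbol kept. DESeq2 1.42.0, other size factors, filters and thresholds, a replicate block and leaving out each library were alternatives. Figures and tables used Python 3.11.15, numpy 2.4.6, pandas 2.3.3 and matplotlib 3.10.9.

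Named genes are up to 6 members per class by summed counts, those on X or Y, those within 20 kb of another member, those with a symbol other than CG or CR and digits, those nearest the threshold, the 3 highest and 3 lowest hybrid levels per autosomal class, and genes a result turns on, chosen after their values were seen. A planned comparison of close protein copies was not run, since no protein sequences were used here.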

Additional observations from a re-analysis of the deposited data

How the results depend on the processing

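The set depends on its thresholds: 300 genes met the rule with on at 50 counts and 32 at 200, against 90. With counts scaled to the mean TMM library size 91 genes met it, of which 84 were shared with the 90. Leaving out 1 strain library, with that strain's thresholds lowered to 2 and 67 counts at the same time, gave 98 to 157 genes. The 157 were reached without CS 3, with all 90 kept, while the other settings of this kind kept 82 to 89 of the 90. Leaving out CS 1 and RG11N 3, chosen after seeing the data, with the same lowered thresholds in both strains, gave 148, of which 82 were shared. The part of the lowered thresholds in these numbers was not separated. Asking for 10 or more counts in each library, also chosen after seeing the data, left 76. Genes with hybrid counts numbered 70 to 76 with 1 hybrid library left out and more than 2 counts asked for, against 79, and 34 to 35 against 36 with CO13N on and CS off. The median hybrid level of autosomal genes on in CO13N ranged from 40.8% to 55.6% with 1 library left out, and the 18 alternatives moved it by less than the spread between hybrid libraries. For genes on in CS it was 10.1%, but 49.4% as a ratio of summed CPM, 16.1% with 0 counts in CO13N, 3.99% with 200 or more counts in CS, 0% in hybrid 1 and 2 alone and 0% to 41.4% with 1 library left out (41.4% without CS 1, 27.9% without CS 2, 0% without hybrid 3). The cause was not tested.

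DESeq2 called more genes: 24 against 12 higher in the hybrid than in CS with CO13N on, 1 against 0 lower than in CO13N, 2 against 0 higher than in CO13N with CS on, and 8 against 3 neighbours in RG11N versus CS. The cause was not tested. With 1 library left out, the 12 became 9 to 14, the 4 and 3 neighbours called 4 to 5 and 2 to 3, and each count of 0 remained 0. Low counts limit single genes: most intervals of the hybrid level hold both 50% and 100%.

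The labels number the replicates alike in each group and do not say whether the numbers pair samples. Same-numbered libraries deviated together with correlations of -0.0894 to 0.122, -0.0538 to 0.0795 and -0.00573 to 0.209. Such correlations over all genes cannot exclude an effect shared by same-numbered libraries. The muscle marker sum was highest in replicate 1 of CO13N, CS and the hybrid, but lowest in replicate 1 of RG11N. With the replicate number as a block, 9 genes in place of 12 were called higher in the hybrid than in CS, 4 and 3 neighbours were called, and 0 genes in each comparison with 0. CG10352, CG14573 and CG33296 were the 3 no longer called. Over all genes the block moved the calls from 28 to 26 in hybrid versus CO13N, from 107 to 112 in hybrid versus CS and from 492 to 560 in hybrid versus RG11N.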
